A study of Homo sapiens with 12 samples.

Results

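The data described here are the change of the CdCl effect between 12 h and 48 h in HK-2 cells, that is the difference between CdCl and control at 48 h minus the same difference at 12 h, the interaction of treatment and time. All 12 arrays entered it. Its members are the 41091 probe sets, of 54675 on the array, that carry exactly 1 gene symbol. Of these, 19005 exceeded a log2 value of 4 on at least 3 of the 12 arrays and were tested, and they stand for 10683 genes with each gene taken by whichever of its probe sets had the top mean over the arrays. An interaction alone does not say which cells moved, so each one was set beside its 2 parts, the move of the CdCl level from 12 h to 48 h and the move of the control level over the same interval, whose difference it is.

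The HK-2 line was made from proximal tubule epithelium of a human kidney and has been immortalised. All groups were grown in a DMEM and Ham's F12 medium with selenite, transferrin, insulin, hydrocortisone and epidermal growth factor, and were treated close to confluence in 6-well plates. The 4 groups were control vehicle for 12 h, CdCl for 12 h, control vehicle for 48 h and CdCl for 48 h, each with 3 biological replicates and 1 array per replicate. The dose of CdCl and the vehicle are not given in the sources used here. The labels call the replicates biological without saying what separated them, so the p-values measure only the spread between these cultures. HK-2 is 1 cell line, and a single treatment level at each time says nothing of dose.

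Metal exposure is known to engage several stress programmes in epithelial cells. Metal responsive transcription factor MTF1 switches on metallothioneins, small proteins that bind zinc and other metals, and heat shock factor HSF1 switches on the chaperones that refold damaged proteins. NRF2 drives antioxidant enzymes, and the unfolded protein response and its partner ATF4 adjust protein folding and amino acid supply. Several of these programmes also respond to the state of a culture, such as nutrient supply and cell density, which makes the control level at each time part of the result.

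Arrays of 1 group correlated at 0.9965 to 0.9982 over the 41091 probe sets with 1 symbol and arrays of different groups at 0.9703 to 0.9879. Of 11 measured genes on a marker list for HK-2 cells, 7 exceeded 4 in at least 1 group, among them PAX8, KRT18 and CDH16. GGT1, ANPEP, AQP1 and PAX2 stayed under 4. The list was not limited to genes found only in the proximal tubule. None of 8 endothelial or 6 immune markers exceeded 4 in any group mean. Of the other lists, 4 of 15 collecting duct and thick limb genes, 2 of 6 podocyte genes and 5 of 8 fibroblast and pericyte genes exceeded 4. Some were high, with PTPRO at 12.94, RGS5 at 12.24 and DCN at 11.72 in control at 12 h. The mean level of these 3 lists ranged over the 4 groups from 3.28 to 3.41, from 5.00 to 5.18 and from 6.16 to 6.74. Single members moved more, such as LUM, 9.44 in control at 12 h and 7.32 with CdCl at 48 h. Among technical measures, the poly-A spike-in controls had an interaction of -0.27, with moves from 12 h to 48 h of -0.71 with CdCl and -0.44 in control. The actin 3' minus 5' signal had an interaction of 0.30, with moves of -0.11 with CdCl and -0.41 in control. The part of either in the gene results was not tested.

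The interaction passed the test for 6775 of 19005 probe sets (35.6%), 3865 of them higher (20.3%) and 2910 lower (15.3%). Higher means that CdCl minus control was larger at 48 h than at 12 h. By gene, 4024 of 10683 passed (37.7%), 2704 higher (25.3%) and 1320 lower (12.4%), and the interaction reached 2-fold in 417 of those higher and 371 of those lower. The median interaction over all genes was 0.13 on the log2 scale. Centring each array on the median of the tested probe sets lowered that median to 0.07 and the higher share of the genes called from 67.2% to 58%. In cultures, fewer cells of a kind and less RNA per cell cannot be told apart.

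A called interaction did not always come with a CdCl level that moved past the test. Of the 4024 genes called, 1368 (34%) had a CdCl level that moved with time while the control move did not pass the test, and in 1094 of these the control was held, meaning that the 95% interval of its move lay within -0.5 to 0.5. In 942 genes (23.4%) the control level moved and the CdCl move did not pass, with the CdCl level held in 796. Both levels moved in opposite directions in 409 genes (10.2%), and both moved the same way by different amounts in 1245 (30.9%). The last group held 429 genes that rose further with CdCl, 173 that rose further in control, 341 that fell further with CdCl and 302 that fell further in control. Neither move passed on its own in the other 60 genes. Below, CdCl alone or control alone means that the other move did not pass the test, not that it was absent. This sorting depends on its thresholds. Counted over probe sets, a held margin of 0.3 in place of 0.5 took the count with control held from 1754 to 716 and the count with CdCl held from 1292 to 519, and a move threshold of 0.01 in place of 0.05 took the opposite moves from 684 to 290.

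**Figure D1:**
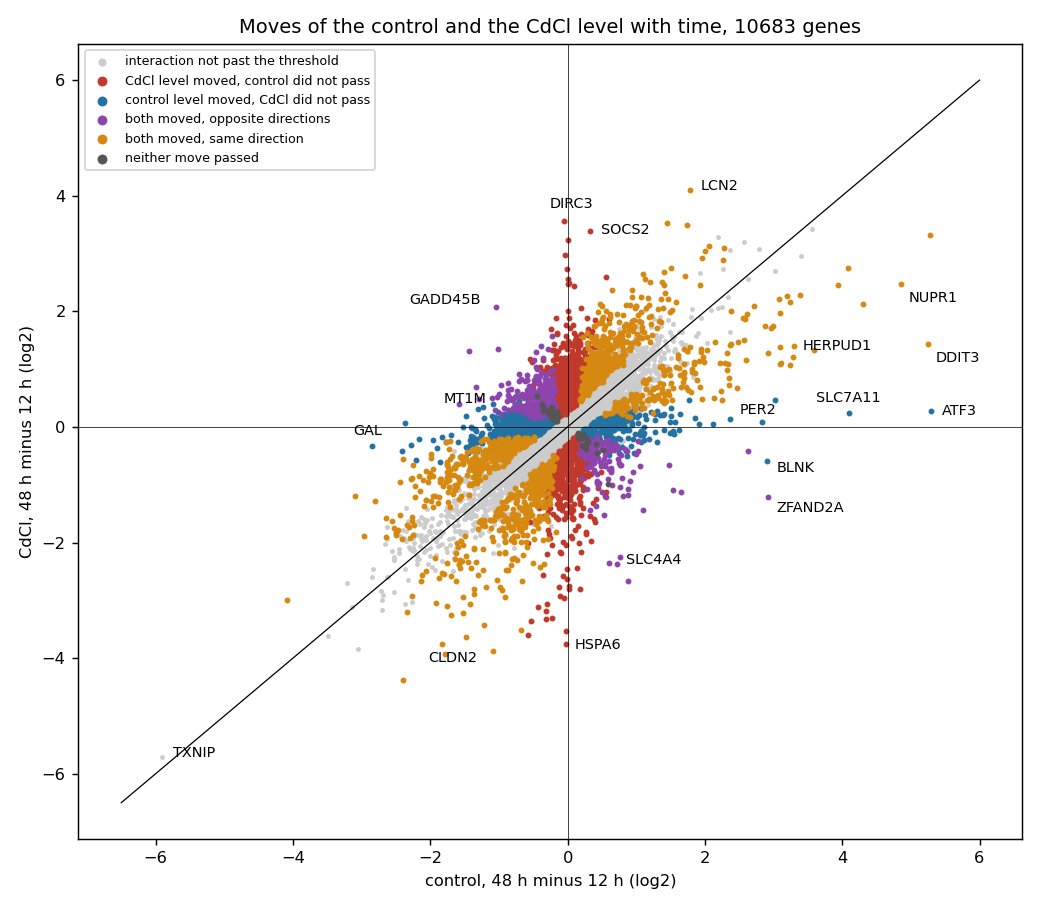
Move of the control level (x axis) against move of the CdCl level (y axis) from 12 h to 48 h, log2, 1 point per gene for the 10683 genes tested, coloured by whether the interaction passed and by which level moved. Points on the diagonal have the same effect at both times; ATF3 and SLC7A11 lie far to the right near a CdCl move of 0, HSPA6 lies far below at a control move of 0, and DIRC3 and SOCS2 lie above it.

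Much of the movement with time was common to both treatments. Over the 10683 genes the CdCl move and the control move, which share no arrays, correlated at Pearson r = 0.682 and Spearman rho = 0.658, a description across genes, which are not independent replicates. The moves themselves passed for 61.1% of genes with CdCl (34% up, 27% down) and for 55.4% in control (22.8% up, 32.6% down). The standard deviation of the moves over genes was 0.75 with CdCl and 0.67 in control.

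Sorted by the effects at each time, the called genes followed 6 courses, a sorting of the same arrays and so a description. The CdCl effect passed in 54.8% of genes at 12 h (16.2% higher, 38.6% lower) and in 52.6% at 48 h (25.6% higher, 27% lower). A lower level under CdCl at 12 h that was smaller or no longer passed at 48 h was the most frequent, with 1218 genes, and in 643 of them the control made the larger move, with a median control move of -0.31 against a median CdCl move of 0.26. A higher level that was larger or first passed at 48 h followed with 1035 genes, of which 676 had the larger move with CdCl. A lower level that was larger at 48 h was seen in 716 genes, 518 with the larger move in CdCl. A rise at 12 h that was smaller at 48 h was seen in 470, split into 237 with the larger move in CdCl and 233 with the larger move in control. The effect passed at both times with opposite signs in 393 genes that went from lower to higher and 111 that went from higher to lower. The remaining 81 genes passed at neither time.

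**Figure D2:**
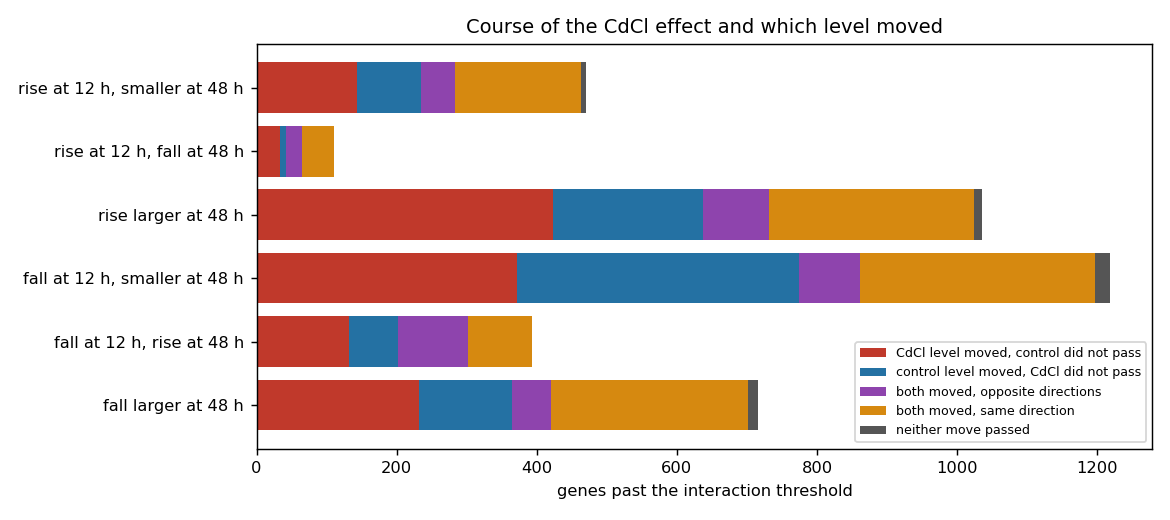
Number of genes with a called interaction in each course of the CdCl effect (bars), divided by which level moved between 12 h and 48 h. The bar for falls at 12 h that were smaller at 48 h holds 372 genes in which only the CdCl move passed and 402 in which only the control move passed. The bar for rises larger at 48 h holds 423 and 215.

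The heat shock genes HSPA6 and CHORDC1 had a CdCl level that came down beside a control move that did not pass the test. HSPA6, a strictly stress-inducible Hsp70, read 11.12, 10.97 and 10.89 on the 3 CdCl arrays at 12 h and 7.28, 6.95 and 7.47 at 48 h. Control arrays read 2.48, 2.48 and 2.54 at 12 h and 2.50, 2.40 and 2.54 at 48 h, all under 4, where values have no order. The CdCl groups did not overlap and the control values stayed at the bottom of the scale, so the whole interaction of -3.73 ± 0.16 (± standard error; limma adjusted p = 2.3e-07) lay in the CdCl move of -3.76. CHORDC1, an Hsp90 co-chaperone, followed the same course. Its CdCl arrays fell from 11.59, 11.74 and 12.13 to 10.39, 10.09 and 10.33, and its control arrays read 9.83, 9.97 and 9.86 and then 9.74, 9.76 and 9.68. The CdCl groups were clearly apart, the control move of -0.16 did not pass (adjusted p = 0.3), and the interaction was -1.39 ± 0.18 (adjusted p = 0.00023). HSPA1L, another Hsp70, had an interaction of -1.38 ± 0.32 with a control move of 0.02.

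Of 23 heat shock genes tested, 15 had a lower interaction and none a higher one, against 12.4% lower and 25.3% higher over all genes. The CdCl level fell in 21 of the 23 (27% of all genes) and the control level in 13 (32.6%), so in most of the list the control did not stay in place. Of the 15 called genes, 6 had a CdCl move alone, 7 moved the same way in both treatments, 1 moved in opposite directions and 1 had neither move pass. The list's median interaction was -0.39, which is 0.52 under the median of all genes. The gene that moved in opposite directions was ZFAND2A. This gene, which binds the proteasome and is induced by arsenite, read 6.71, 6.28 and 5.95 in control at 12 h and 9.21, 9.17 and 9.30 at 48 h. With CdCl it read 13.23, 13.24 and 13.37 at 12 h and 11.91, 12.14 and 12.14 at 48 h. Both CdCl groups stayed above both control groups, yet the gap closed from 6.97 to 2.84, and of the interaction of -4.13 ± 0.22, the control rise of 2.91 was the larger part.

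Promoter sequences were read for the stretch before the start site of HSPA6 and CHORDC1 because both carry the heat shock element searched for, GAANNTTC, printed in capitals. They come from RefSeq on GRCh38.p14, chr1:161524340-161524498 on the plus strand and chr11:90223072-90223274 on the minus strand, each 5′ to 3′ in the direction of the gene.
HSPA6: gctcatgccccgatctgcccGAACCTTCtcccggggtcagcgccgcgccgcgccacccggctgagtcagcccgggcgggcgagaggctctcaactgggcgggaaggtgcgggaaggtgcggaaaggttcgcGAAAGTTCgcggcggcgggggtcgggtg
CHORDC1: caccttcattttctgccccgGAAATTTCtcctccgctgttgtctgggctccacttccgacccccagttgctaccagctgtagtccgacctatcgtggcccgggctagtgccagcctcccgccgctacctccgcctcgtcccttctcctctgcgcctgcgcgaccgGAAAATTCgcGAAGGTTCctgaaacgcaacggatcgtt
HSPA6 holds 2 matches and CHORDC1 holds 3. The motif, a palindrome and so the same on both strands, is found in 5.85% of 27305 promoters of the same length, in 7 of the 20 tested heat shock genes with a promoter sequence and in 5 of the 14 with a called interaction. A match is a description of letters and not a site of binding.

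Other early CdCl responses came down in the CdCl cells in the same manner. MMP10, a matrix metalloproteinase, read 6.48, 6.90 and 7.05 with CdCl at 12 h and 3.51, 2.94 and 3.40 at 48 h, with every control array under 3. Since the 48 h values lie under 4, the CdCl level fell by at least 2.81 (the interaction with means under 4 set at 4 was -2.81). IL11, a cytokine of the IL-6 family, read 7.23, 7.22 and 7.45 at 12 h and 3.77, 4.06 and 5.21 at 48 h with CdCl, and its control arrays were under 3 at both times. The spread at 48 h was wide, but no array reached the 12 h range, and the interaction was -2.90 ± 0.39 (adjusted p = 0.00026). ANKRD1, a YAP target, fell by 2.44 with CdCl from 9.46 and still stood at 7.01, while control stayed under 4. F3, which encodes tissue factor, fell by 2.01 with CdCl, and its CdCl effect of 1.81 at 12 h (adjusted p = 4.5e-06) was -0.37 at 48 h (adjusted p = 0.074).

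Hypoxia and glycolysis genes and inflammatory genes also had lower interactions, with mixed control moves. In the hypoxia and glycolysis list 15 of 26 genes had a lower interaction and none a higher one, against 12.4% and 25.3% of all genes. The median interaction was -0.66. The CdCl level fell in 22 of the 26 (27% of all genes), while the control level fell in 13 (32.6%) and rose in 4 (22.8%). Of the 15 called genes, 7 had a CdCl move alone. HK2, hexokinase, read 9.92, 9.94 and 10.20 with CdCl at 12 h and 8.44, 8.51 and 8.52 at 48 h while control rose from 7.71 to 8.24 and the CdCl groups did not overlap. Its 2 other tested probe sets read near 4 and did not pass. PFKFB3, a kinase that sets glycolytic flux, fell with CdCl from 10.31 to 8.40 with a control move of -0.25 (adjusted p = 0.1). VEGFA, the endothelial growth factor, departed from the list, since both levels rose and control rose further, by 2.36 against 0.72. On this probe set CdCl stood above control at 12 h and below it at 48 h. On its other tested probe sets control also rose further, but CdCl ended level with control. Their CdCl and control means at 48 h were 7.43 and 7.34, 7.88 and 7.88, and 8.89 and 8.84. Of 17 NF-kB and inflammatory genes 9 had a lower interaction and none a higher one (52.9% called, against 37.7% of all genes). Their CdCl level fell in 10 of the 17, the control level rose in 7 and fell in 3, and 3 of the 9 called genes had a CdCl move alone. TNFAIP3, a brake on NF-kB, fell with CdCl from 9.13, 9.41 and 9.27 to 8.24, 8.13 and 8.34 and rose in control from 6.18 to 6.95.

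The amino acid response and the unfolded protein response also had lower interactions, but here the control cells moved the most. ATF3, a stress-induced transcription factor, read 3.86, 4.34 and 3.44 on the control arrays at 12 h and 9.08, 9.13 and 9.30 at 48 h. With CdCl it read 10.79, 10.89 and 10.89 at 12 h and 11.14, 11.15 and 11.10 at 48 h. The CdCl level was high at both times, and its move of 0.28 did not pass (adjusted p = 0.19), while the control moved by 5.29. The interaction was -5.01 ± 0.24 (adjusted p = 4e-07) and -4.89 with the control mean at 12 h, 3.88, set at 4, the largest lower interaction of the 10683 genes on that scale. The second tested probe set of ATF3, with a control mean at 12 h of 2.51, had an interaction of -3.62 and a CdCl move of 0.48. SLC7A11, the cystine importer, followed ATF3 closely. Its control arrays rose from 6.56, 6.36 and 6.32 to 10.57, 10.51 and 10.45, and its CdCl arrays read 10.70, 10.73 and 11.04 and then between 10.99 and 11.20. At 48 h the control had come to within 0.56 of the CdCl level, from a distance of 4.41 at 12 h.

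DDIT3, which encodes the pro-apoptotic factor CHOP, rose in both treatments. Its control arrays went from 7.51, 7.53 and 7.40 to 12.65, 12.78 and 12.76 and its CdCl arrays from 11.38, 11.51 and 11.60 to 12.89, 13.02 and 12.89. The control at 48 h lay above CdCl at 12 h on every array, and the CdCl effect went from 4.01 to 0.20 (adjusted p = 0.054 at 48 h), an interaction of -3.81 ± 0.11. SLC7A5, a large neutral amino acid transporter, rose by 2.64 in control and fell by 0.42 with CdCl. NUPR1, a stress-responsive nuclear protein, rose by 4.86 in control and by 2.47 with CdCl, so that CdCl stood above control at 12 h (0.94) and below it at 48 h (-1.45).

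Counted over the ATF4 list, 26 of 33 genes had a lower interaction and none a higher one, against 12.4% and 25.3% of all genes. The median was -0.76. The control level rose in 32 of the 33 (22.8% of all genes) and the CdCl level in 27 (34%). Of the 26 called genes, 20 moved the same way in both. In the list of endoplasmic reticulum chaperones and unfolded protein response genes 14 of 24 had a lower interaction and none a higher one, with a median of -0.86, a median control move of 1.95 and a median CdCl move of 1.10. The control at 48 h was above CdCl at 12 h in 28 of the 33 ATF4 genes and in 23 of these 24, against 56.3% of all genes. HERPUD1, which acts in degradation of misfolded proteins, shows the course. Its control arrays rose from 10.39, 10.42 and 10.39 to 13.67, 13.74 and 13.65, and its CdCl arrays from 12.48, 12.54 and 12.58 to 13.84, 13.53 and 13.85. CdCl and control overlapped at 48 h, after a gap of 2.13 at 12 h. HSPA5, the main chaperone of the endoplasmic reticulum, rose by 1.96 in control and 0.49 with CdCl, reaching 15.09 and 15.26. These levels are close to the highest value on the arrays, and its second tested probe set, with 48 h levels of 9.75 and 10.56, had a larger interaction of -2.71. ERN1, the sensor kinase IRE1, turned from 1.26 at 12 h to -0.63 at 48 h with a control rise of 3.29 against 1.40 with CdCl.

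**Figure D3:**
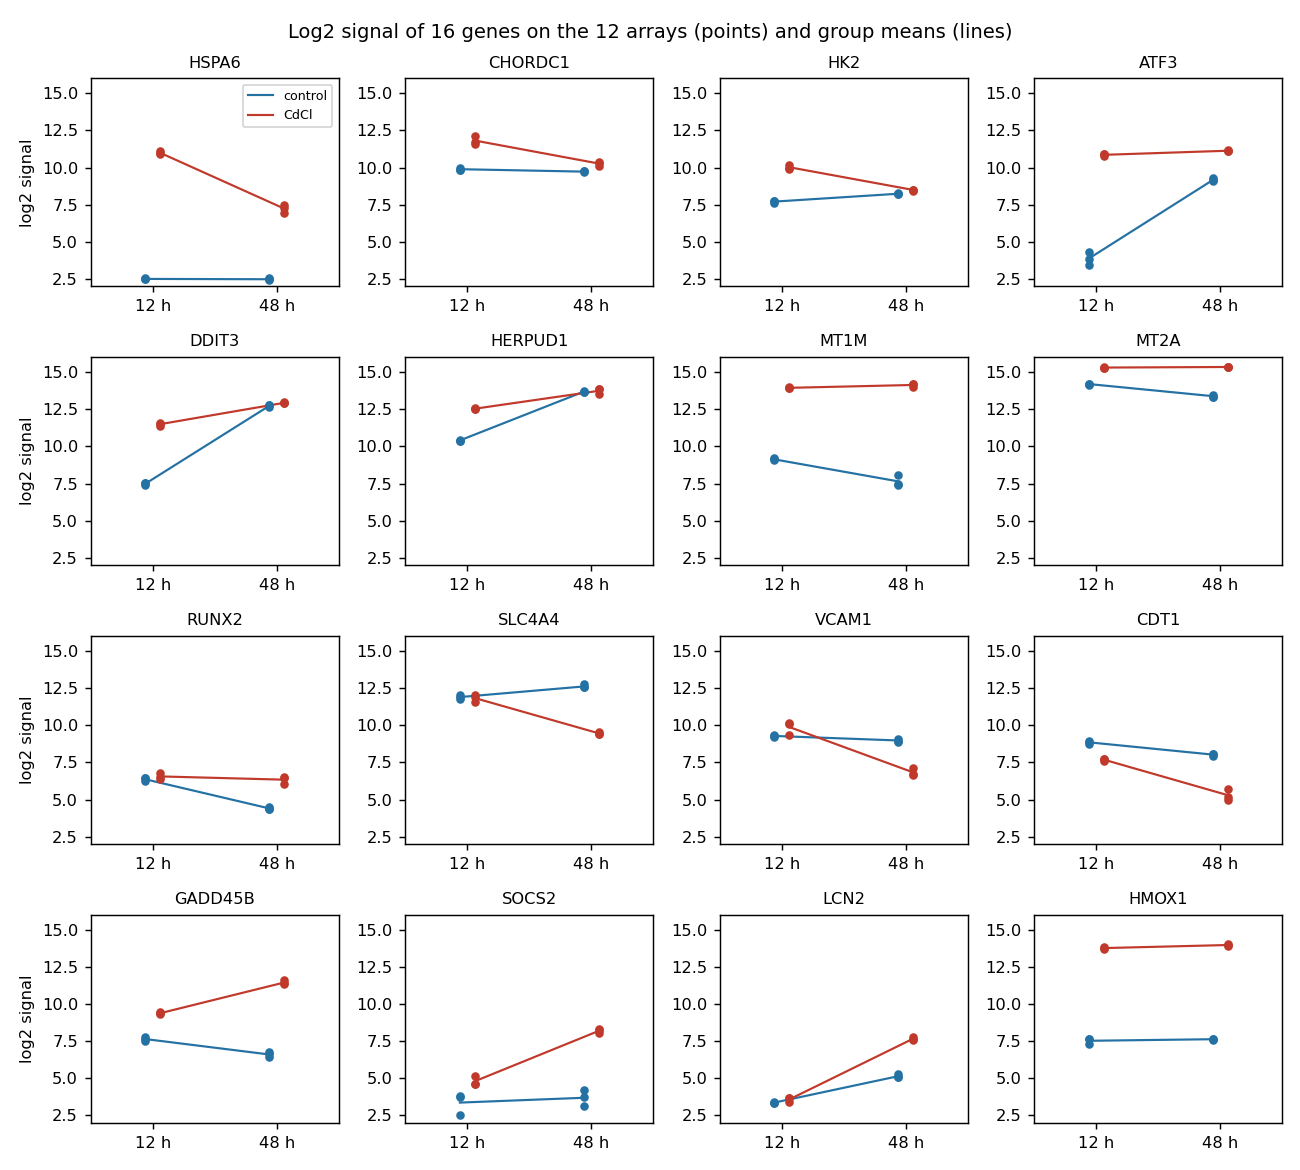
Log2 level of single genes on each of the 12 arrays (points) with group means (lines), control and CdCl at 12 h and 48 h. HSPA6 comes down with CdCl over a control under 4, ATF3 comes up in control while its CdCl move of 0.28 did not pass, and MT1M comes down in control.

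The amino acid response element core searched for, TGATGNAA on either strand, stands in capitals in 3 promoters of this list. ATF3 is a gene named by rule, and ASNS, asparagine synthetase, and CHAC1, which degrades glutathione, were chosen after their values were seen. The windows from RefSeq on GRCh38.p14 are chr1:212565196-212565243 on the plus strand, chr7:97872449-97872496 on the minus strand and chr15:40953242-40953289 on the plus strand.
ATF3: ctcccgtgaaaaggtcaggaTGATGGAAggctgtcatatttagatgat
ASNS: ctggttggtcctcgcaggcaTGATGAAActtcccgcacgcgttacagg
CHAC1: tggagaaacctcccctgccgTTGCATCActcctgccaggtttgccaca
ASNS had an interaction of -1.24 ± 0.12 with moves of 2.96 in control and 1.71 with CdCl, and CHAC1 one of -1.11 ± 0.30 with moves of 2.22 and 1.11. The motif is found in 3.19% of the 27305 promoters, in 5 of the 29 tested ATF4 genes with a promoter sequence and in 3 of the 24 with a called interaction.

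Metallothioneins had higher interactions with a control that fell. Of 8 metallothionein genes tested, 7 had a higher interaction and none a lower one, against 25.3% and 12.4% of all genes. In all 7 the control level fell (32.6% of all genes) while the CdCl move did not pass the test. MT1M, the member with the largest interaction, read 9.06, 9.13 and 9.20 in control at 12 h and 7.40, 7.48 and 8.05 at 48 h. With CdCl it read 13.98, 13.92 and 13.93 at 12 h and 14.22, 13.99 and 14.19 at 48 h. The control groups were far apart, the CdCl move of 0.19 did not pass (adjusted p = 0.27), and the CdCl effect went from 4.82 to 6.49, an interaction of 1.68 ± 0.20 (adjusted p = 0.00014). MT2A, a widely expressed member, fell in control from 14.15, 14.21 and 14.23 to 13.36, 13.48 and 13.30. Its CdCl arrays read 15.33, 15.30 and 15.29 and then 15.32, 15.36 and 15.36, which is within 0.5 of the highest value on any array, so a further rise with CdCl could have been compressed. MT3, the form of the nervous system, read 3.81 to 4.37 over the groups and had an interaction of 0.10 ± 0.26 (adjusted p = 0.79). Probe sets of this family can share sequence, so the members are not independent.

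The start-site stretches of MT1H, MT2A and MT1X are shown because all 3 of the called metallothioneins with a promoter sequence hold the metal response element core, TGCACNC or TGCGCNC on either strand, in capitals. They lie in the metallothionein cluster on chromosome 16 of GRCh38.p14, from RefSeq, at chr16:56669571-56669813, chr16:56608334-56608583 and chr16:56682300-56682443, all on the plus strand.
MT1H: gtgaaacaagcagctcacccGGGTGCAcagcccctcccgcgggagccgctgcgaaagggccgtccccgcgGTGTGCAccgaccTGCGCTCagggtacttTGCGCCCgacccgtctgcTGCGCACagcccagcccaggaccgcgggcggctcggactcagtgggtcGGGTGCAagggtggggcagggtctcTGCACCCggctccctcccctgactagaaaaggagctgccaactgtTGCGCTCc
MT2A: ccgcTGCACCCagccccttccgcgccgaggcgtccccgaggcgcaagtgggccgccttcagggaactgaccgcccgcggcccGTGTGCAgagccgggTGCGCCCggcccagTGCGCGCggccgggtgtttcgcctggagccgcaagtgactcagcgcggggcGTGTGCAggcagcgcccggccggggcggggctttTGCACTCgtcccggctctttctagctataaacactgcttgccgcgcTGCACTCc
MT1X: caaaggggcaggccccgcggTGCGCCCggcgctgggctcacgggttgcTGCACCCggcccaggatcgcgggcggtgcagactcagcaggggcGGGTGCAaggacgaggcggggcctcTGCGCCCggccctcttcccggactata
MT1H holds 8 matches, MT2A 7 and MT1X 4. At least 1 match is found in 24.7% of 27305 promoters and at least 4 in 0.366%. The interactions of these 3 genes were 0.87 ± 0.16, 0.85 ± 0.09 and 0.65 ± 0.10, each with a control that fell, by 0.70, 0.82 and 0.62.

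Not every strong CdCl response changed with time. HMOX1, heme oxygenase, read 7.62, 7.63 and 7.33 in control and 13.70, 13.78 and 13.84 with CdCl at 12 h. At 48 h the control arrays read 7.64, 7.60 and 7.66 and the CdCl arrays 13.92, 13.99 and 14.03. Both effects exceeded 6, and the interaction of 0.10 ± 0.12 did not pass (adjusted p = 0.56), with a 95% interval from -0.17 to 0.37. CDKN1A, the cell cycle inhibitor p21, had a CdCl effect of 1.00 at 12 h and 1.08 at 48 h and an interval of the interaction from -0.17 to 0.32. SLC30A1, the zinc exporter and an MTF1 target, rose with time in both treatments and had a small higher interaction of 0.26 ± 0.09 (adjusted p = 0.043) that did not pass in 11 of the 12 fits with 1 array left out (adjusted p from 0.051 to 0.1).

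NRF2 targets divided among the origins. Of 26 tested, 11 had a lower interaction and 4 a higher one, against 12.4% and 25.3% of all genes. Among the called genes, 3 moved with the CdCl level alone, 4 with the control level alone, 1 with opposite moves and 7 with both levels moving the same way. AKR1B10, an aldo-keto reductase, read 7.04, 7.34 and 6.83 with CdCl at 12 h and 4.07, 4.07 and 4.80 at 48 h with control under 4, an interaction of -2.78 ± 0.27. AKR1C2, another of this enzyme family, fell by 2.81 with CdCl and by 0.96 in control; near-identical AKR1C genes can share probes. NQO1, a quinone reductase, went the other way, with an interaction of 0.55 ± 0.11, with a control move of -0.76 and a CdCl move of -0.21. Of its other 2 probe sets, 1 passed with the same sign (0.48) and 1 had an interaction of -0.23 that did not pass (adjusted p = 0.062). The antioxidant response element core, TGACNNNGC on either strand, was also searched for and is found in 11% of 27305 promoters. Among NRF2 targets with a promoter sequence, 5 of 20 tested and 2 of 11 called hold a match.

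**Figure D4:**
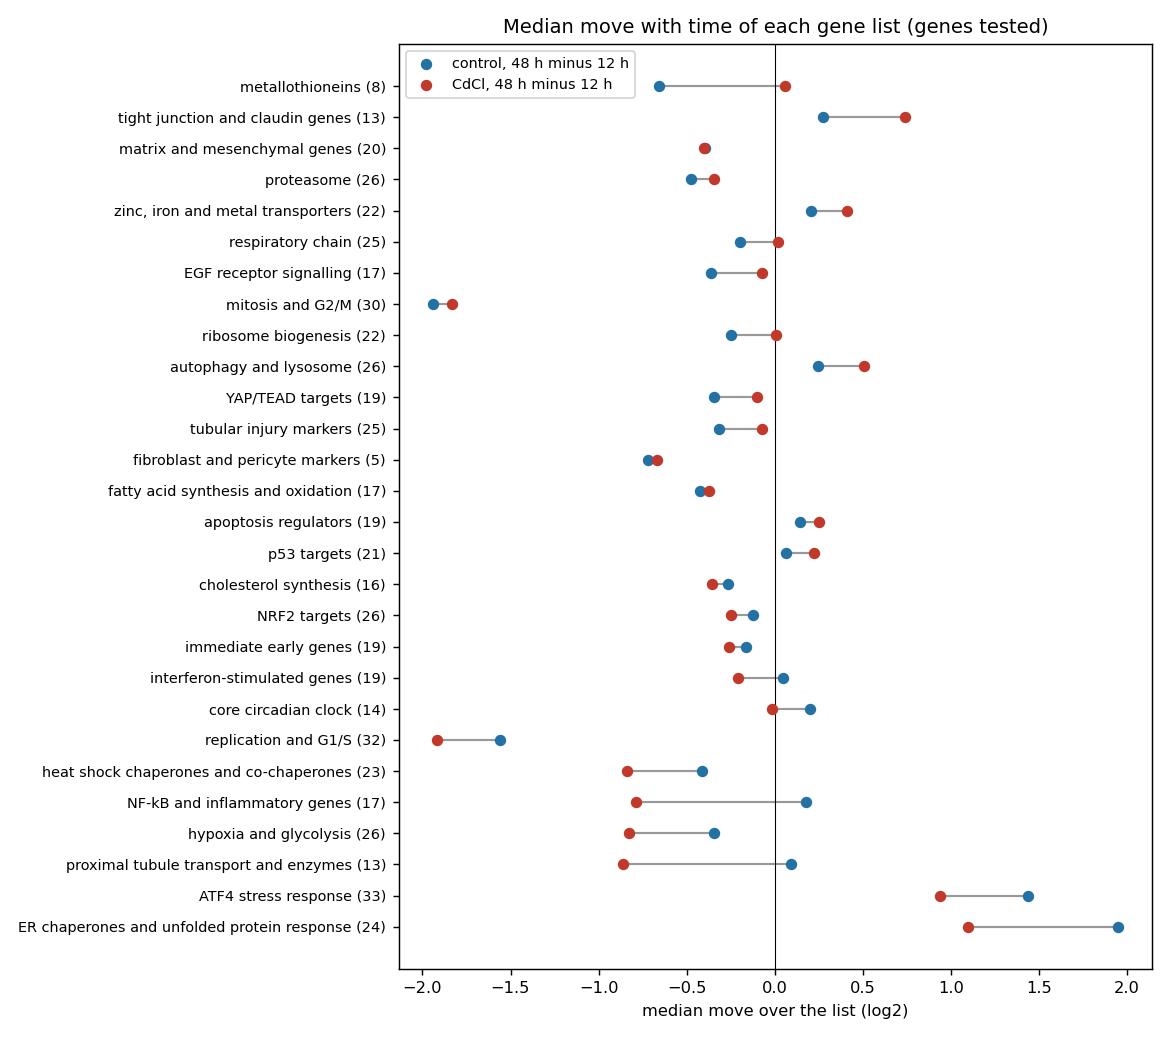
Median move from 12 h to 48 h of the tested genes of each list, log2, in control and with CdCl. The unfolded protein response and ATF4 lists lie above 0 in both treatments with control further up, replication and mitosis lie near -1.5 to -2 in both, and the metallothioneins are below 0 in control only.

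Cell division genes fell with time in both treatments. All 30 mitosis genes fell in control and all 30 with CdCl, and 6 interactions passed, 4 higher and 2 lower (3 and 5 after centring on the tested probe sets). MKI67, the proliferation marker, had a control move of -2.52 and a CdCl move of -2.25, with an interval of the interaction from -0.20 to 0.75. Over all genes the level fell in 32.6% in control and in 27% with CdCl. The share called was 20% of mitosis and 50% of replication and G1/S genes, against 37.7% of all genes. Of 32 replication and G1/S genes, 31 fell in control and 30 with CdCl, 12 had a lower interaction and 4 a higher one (12.4% and 25.3% of all genes). The lower ones included licensing factors. CDT1, which loads the MCM helicase, fell with CdCl from 7.72, 7.62 and 7.71 to 5.68, 4.99 and 5.20 and in control from 8.95, 8.84 and 8.76 to 7.94, 8.06 and 8.07. MCM5, a subunit of that helicase, fell by 2.45 with CdCl and 1.41 in control, an interaction of -1.03 ± 0.15.

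All 8 genes of the 2 lists with a higher interaction were lower with CdCl at 12 h already. ESPL1, separase, read 5.94, 5.93 and 6.11 with CdCl at 12 h against 8.19, 8.09 and 8.44 in control. At 48 h it read 5.57, 5.65 and 5.10 with CdCl and 5.85, 5.72 and 5.95 in control, so control had come down close to the CdCl level of 12 h. The interaction was 1.84 ± 0.20 (adjusted p = 7.6e-05). E2F2, an S-phase transcription factor, had a CdCl effect of -1.35 at 12 h and -0.16 at 48 h, with a control that fell by 1.42 and a CdCl move that did not pass (adjusted p = 0.092). CCNE1, cyclin E1, ended with all 6 arrays of 48 h between 5.72 and 5.79.

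The proximal tubule genes tested had mostly lower interactions. Of 30 listed genes with a probe set, only 13 passed the filter on low values and were tested. Of these 13, 7 had a lower interaction and 1 a higher one, against 12.4% and 25.3% of all genes. The median interaction was -0.71. The CdCl level fell in 10 of the 13 (27% of all genes), while the control level rose in 5 (22.8%) and fell in 2 (32.6%). Of the 8 called genes, 4 had a CdCl move alone, 2 moved in opposite directions and 2 moved the same way in both. SLC4A4, the basolateral bicarbonate cotransporter, read 11.92, 12.01 and 11.76 in control and 11.93, 12.01 and 11.56 with CdCl at 12 h, overlapping ranges. At 48 h it read 12.55, 12.74 and 12.54 in control and 9.43, 9.54 and 9.40 with CdCl. The CdCl effect, -0.06 at 12 h, was -3.16 at 48 h, and all 4 of its other tested probe sets had a called interaction of the same sign. On those 4 the mean at 12 h was higher with CdCl than in control, from 7.23 against 6.87 to 9.15 against 8.18. Their control moves were -0.28 on 1 and 1.32 to 1.89 on the others. SLC6A13, a transporter of GABA and taurine, fell with CdCl from 8.31, 8.29 and 7.69 to 5.71, 5.72 and 6.13 and rose in control from 9.30 to 10.07. CDH16, the kidney-specific cadherin, fell with CdCl from 6.71 to 5.13, while its control move of 0.38 did not pass (adjusted p = 0.088). CDH6, an adhesion protein of the tubule, fell in both, by 3.21 with CdCl and 1.52 in control; 4 of its 5 other probe sets had a called interaction of the same sign, and the fifth, low in level, did not pass.

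Junction genes went both ways. CLDN2, the claudin of the leaky proximal tubule, fell with CdCl from 9.36, 9.28 and 8.63 to 4.86, 5.48 and 5.29 and in control from 9.76, 9.42 and 9.59 to 8.50, 8.60 and 8.42. The interaction was -2.80 ± 0.28 (adjusted p = 4.3e-05), and the CdCl arrays of 48 h lay below all others by more than 2. CDH1, E-cadherin, rose by 1.75 with CdCl and 0.97 in control, turning from -0.38 at 12 h to 0.41 at 48 h. GJA1, the gap junction protein connexin 43, turned the other way. It read 12.46, 12.63 and 12.60 with CdCl at 12 h and 10.96, 10.83 and 11.10 at 48 h, while all control arrays of both times lay between 11.49 and 11.59. Of 13 junction genes 5 had a higher and 3 a lower interaction, against 25.3% and 12.4% of all genes.

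Injury markers did not move as 1 group, with 11 of 25 higher and 6 lower, against 25.3% and 12.4% of all genes. In 7 of the 17 the control level moved and the CdCl move did not pass the test. After centring on the tested probe sets the counts were 7 higher and 8 lower. LCN2, the secreted protein NGAL used as a marker of tubular injury, read 3.37, 3.38 and 3.36 in control and 3.67, 3.41 and 3.66 with CdCl at 12 h, all under 4. At 48 h it read 5.29, 5.06 and 5.10 in control and 7.57, 7.81 and 7.64 with CdCl. Both levels rose and CdCl rose further, an interaction of 2.32 ± 0.14 and 2.53 with means under 4 set at 4. HAVCR1, the injury molecule KIM-1, turned from 0.59 at 12 h to -1.03 at 48 h. Its CdCl arrays fell from 10.01, 9.99 and 10.02 to 8.93, 8.97 and 8.74, and its control rose by 0.50. VCAM1, an adhesion molecule for leukocytes, read 10.11, 10.16 and 9.37 with CdCl at 12 h and 6.72, 7.11 and 6.63 at 48 h with a control move of -0.31 that did not pass (adjusted p = 0.2).

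Of the 12 genes with the largest higher interactions, all but GAL and S100A3 rose from 12 h to 48 h in the CdCl cells. DIRC3, a long non-coding RNA gene, read 3.91, 4.68 and 5.56 with CdCl at 12 h and 8.32, 8.27 and 8.24 at 48 h, with every control array under 4. The 12 h values were scattered and the 48 h values close together, and the interaction was 3.61 ± 0.42 (adjusted p = 0.00011). SOCS2, a suppressor of cytokine signalling, rose with CdCl from 4.64, 4.62 and 5.15 to 8.24, 8.04 and 8.31 over a control mean under 4 at both times. YIF1B, a protein of membrane traffic, had no CdCl effect at 12 h that passed (-0.00) and one of 2.06 at 48 h. C5AR1, the complement C5a receptor, rose by 2.60 with CdCl, and RAB39B, a small GTPase, rose by at least 3.36 with CdCl, from a mean under 4 to 7.36. The control mean of RAB39B stayed under 4 at both times, and its called control move of 1.44 (adjusted p = 4.4e-05) lies within values that have no order.

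GADD45B and ITGA3 rose with CdCl and fell in control. GADD45B, a stress sensor that is also a YAP target, read 7.78, 7.50 and 7.66 in control and 9.41, 9.31 and 9.44 with CdCl at 12 h. At 48 h it read 6.42, 6.65 and 6.75 in control and 11.37, 11.60 and 11.39 with CdCl. All 4 groups were apart, the interaction was 3.11 ± 0.15 (adjusted p = 4e-07), and both other probe sets passed with the same sign. ITGA3, an integrin subunit that binds laminin, read 9.21, 9.04 and 9.26 with CdCl at 12 h and 10.57, 10.52 and 10.46 at 48 h. Its control fell from 9.58, 9.69 and 9.69 to 8.57, 8.85 and 8.49, so the effect turned from -0.49 to 1.88. Among matrix and mesenchymal genes, 9 of 20 had a higher interaction and 2 a lower one (1 without any single CdCl array of 12 h). Over all genes the shares were 25.3% and 12.4%. SNAI2, a repressor of epithelial genes, rose with CdCl from 5.56, 5.34 and 5.99 to 7.08, 6.89 and 7.29 with control under 4, and SNAI1, its relative, from 5.26, 4.62 and 4.50 to 5.99, 6.41 and 5.99.

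Single lysosomal genes also rose late, although the autophagy and lysosome list as a whole was near the background, with 38.5% called against 37.7% of all genes (6 of 26 higher and 4 lower). CTSD, the protease cathepsin D, read 7.92, 7.96 and 7.73 with CdCl at 12 h and 9.55, 9.50 and 9.27 at 48 h with a control move of 0.13. MCOLN1, the lysosomal calcium channel, rose by 1.74 with CdCl and 0.55 in control. ATP6V0D2, a subunit of the vacuolar proton pump that is otherwise a marker of collecting duct intercalated cells, rose with CdCl from values under 3 to 5.57, 5.49 and 5.82, and no control array exceeded 3; of the 15 collecting duct and thick limb genes measured, 11 were under 4 in every group.

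In another set of higher interactions the control fell and the CdCl move did not pass the test. For the 3 genes named next the interval of that move reached past 0.5 in size, so the CdCl level was not shown to be held. GAL, the neuropeptide galanin, read 7.47, 6.67 and 6.80 in control at 12 h and 4.04, 4.80 and 3.54 at 48 h. With CdCl it read 6.89, 6.62 and 7.01 at 12 h and 6.72, 6.36 and 6.46 at 48 h, so that only the control at 48 h stood apart. RUNX2, a transcription factor of bone and invasion, fell in control from 6.44, 6.23 and 6.43 to 4.38, 4.49 and 4.33 and had a CdCl move of -0.22 (adjusted p = 0.19). S100A3, a calcium-binding protein, fell by 2.27 in control with a CdCl move of -0.31 that did not pass. In the proteasome and respiratory chain lists every called interaction was higher, but both lists lay near the background of all genes. Of 26 proteasome genes, 11 had a higher interaction and none a lower one, against 25.3% and 12.4% of all genes. In 6 of the 11 the control level alone moved. Both levels came down in most of this list, the control level in 22 genes (32.6% of all genes) and the CdCl level in 16 (27%). PSMD3, a subunit of the proteasome's cap, had a control move of -0.97 and a CdCl move of 0.03. Of 25 respiratory chain genes, 9 had a higher interaction and none a lower one (25.3% and 12.4% of all genes), 5 of them through control alone. The level fell in 15 genes in control (32.6% of all genes) and in 8 with CdCl (27%). NDUFA9, of complex I, read 10.36, 10.40 and 10.37 in control at 12 h and 9.72, 9.72 and 9.72 at 48 h, and its CdCl move was 0.03. The share called was 42.3% of proteasome and 36% of respiratory chain genes, against 37.7% of all genes, and the medians of both lists were within 0.1 of the median of all genes. After centring on the tested probe sets 5 proteasome genes were higher and 1 lower, and 4 respiratory chain genes were higher and 1 lower. Without the second CdCl array of 12 h, or without the second control array of 48 h, 7 proteasome genes were higher.

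Lower interactions from control alone were fewer, 241 genes against 701 higher ones. PER2, a core clock gene, rose in control from 5.82, 5.58 and 5.59 to 7.85, 8.23 and 8.02. It read 5.01, 5.95 and 5.51 with CdCl at 12 h and 5.43, 5.55 and 5.90 at 48 h, so that only the control at 48 h was high. BLNK, a linker protein of B cell signalling, rose in control from 5.53, 5.49 and 4.71 to 8.11, 8.16 and 8.19 and stood at 3.88 and 3.29 with CdCl. Both CdCl means lie under 4, where values have no order, so a CdCl move of BLNK could not be read. For PER2 and BLNK the CdCl level was not shown to be held. EREG, the growth factor epiregulin, rose in control by 1.53 to 9.85, beside CdCl means of 9.71 and 9.64.

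The interferon and lipid lists were mixed. IFITM1, a restriction factor of viruses, fell with CdCl from 9.11, 9.19 and 8.76 to 6.92, 6.81 and 6.82 while control moved by -0.11. Of 19 interferon-stimulated genes 7 had a lower interaction and 5 a higher one, against 12.4% and 25.3% of all genes. The count of higher ones was close to that share. PDK4, which holds back pyruvate oxidation, fell by 3.64 with CdCl and by 1.48 in control. HMGCS1, an early enzyme of cholesterol synthesis, turned from 0.49 at 12 h to -0.68 at 48 h. TXNIP, a regulator of glucose uptake, fell in both treatments to means under 4, where the values have no order. With means under 4 set at 4, the moves were -5.60 in control and -4.27 with CdCl, the smallest falls that these values allow. Its interaction can therefore not be read in size or sign. The fit gave 0.18 ± 0.33 (adjusted p = 0.7), and setting means under 4 at 4 gave 1.33, which is only the gap of 12 h.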

How the data were processed

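Total RNA of HK-2 cells was labelled as biotinylated cRNA and hybridised to Affymetrix arrays, per the labels' protocols. The deposited log2 values per probe set were made by the authors with GCRMA, which corrects background, normalises between arrays and summarises probes, per the submitters' processing notes; no version of GCRMA is given in the sources used here. GCRMA sets weak signals to similar low values, so levels under 4 were given no order.

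One limma fit (limma 3.58.1, R 4.3.3, lmFit and eBayes) to all 12 arrays, with a mean for each of the 4 groups, gave the interaction, both moves with time and the CdCl effect at each time, two-sided, with Benjamini-Hochberg adjustment over the 19005 probe sets tested (1 symbol, above 4 on at least 3 arrays, Affymetrix controls left out) and a threshold of 0.05. A move was called held where its 95% interval lay within -0.5 to 0.5. Values are log2, ± SE. Each gene was read from whichever of its probe sets had the top mean. Symbols came from the platform annotation, and 41037 of 41091 probe sets matched RefSeq by gene identifier.

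Genes named by rule are the 12 with the largest interaction in each direction (means under 4 set at 4) and the 3 largest per direction in each origin class. Up to 4 called members of each of 32 gene lists and a fixed set of index genes were added. Not all are described above. Among the largest, ENPP3 (-3.55), TMT1A (-3.09), ADAMTS9 (-3.02), EID3 (-2.83) and RGS2 (1.98) were left out. MT3, ASNS and CHAC1 lie outside these rules and were chosen after their values were seen. One index gene, HSPA1B, had no probe set of its own. Members and lists were chosen with earlier results of these data known. Replicate numbers do not pair the cultures: of 18 same-number pairs, 2 deviated together with a correlation above 0.1.

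The fit was checked on simulated data with known changes; it placed opposite moves of both levels in their origin less often than moves of 1 level alone, since the smaller move can miss the threshold. Precision is limited by the 3 arrays per group. Alternatives were other centring, quantile normalization, other filters, an intensity trend, a replicate block, other thresholds and each array left out.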

Additional observations from a re-analysis of the deposited data

Results flagged for a closer look

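The CdCl effect differed between 12 h and 48 h, by the limma test of the difference itself, in 4024 of 10683 genes. It differed in 138 of the 142 genes named by rule, a count that the naming rule fixes, since it takes genes by the size or the call of their interaction. Among all genes the effect passed at both times and turned from a lower to a higher level in 393 and from a higher to a lower level in 111.

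Of the named genes, 18 turned in this way. Those that went from lower to higher were ITGA3 (interaction 2.37), RNF26, a ubiquitin ligase (2.03), BTC, the growth factor betacellulin (1.28), UQCRC1 of respiratory complex III (1.02), PSMD3 (0.99), ACADVL, an enzyme of fatty acid oxidation (0.86), CDH1 (0.79), NDUFA9 (0.68) and NHP2, a small nucleolar RNA protein (0.63). Those that went from higher to lower were VCAM1 (-2.75), NUPR1 (-2.39), ERN1 (-1.89), PFKFB3 (-1.66), VEGFA (-1.63), HAVCR1 (-1.62), GJA1 (-1.54), HMGCS1 (-1.17) and JUNB, an immediate early transcription factor (-0.96). The second tested probe set of RNF26 read near 4 in every group and had an interaction of -0.05 that did not pass. On the other tested probe sets of VEGFA, CdCl and control were nearly level at 48 h, so its turn rests on the probe set used here.

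Probe sets outside the gene comparison also held called interactions. Of 938 tested probe sets with several symbols, 342 passed (36.5%), and of 1773 tested with no symbol, 424 passed (23.9%), against 35.6% of the probe sets with 1 symbol.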

How the results depend on the processing

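Counted over probe sets, leaving out 1 array gave 3265 to 3750 higher and 2361 to 2881 lower interactions, against 3865 and 2910 with all arrays. With the replicate number as a block, which the pairing check did not call for, 3518 were higher and 2651 lower; 3 of 12 arrays correlated best with an array of their own number. With 1 probe set per gene tested, a smaller family, 1394 were lower, and the origins were 1401 from CdCl alone (1142 with control held), 987 from control alone (844 with CdCl held), 452 opposite and 61 from neither. A held margin of 0.3 left 716 and 519 held, and a move threshold of 0.01 gave 290 opposite and 665 from neither. Over 20 alternatives the 142 named genes gave 2816 values: 2696 kept their direction and side of the threshold, 119 lost the call, and 1, TXNIP without the first control array of 48 h, reversed to -0.027 (leaving out 1 array at a time gave -0.027 to 0.476, read from 48 h means under 4 that have no order). After centring on the tested probe sets, an alternative chosen after seeing the data, 3122 probe sets were higher and 3465 lower, so the split of all calls into higher and lower depends on the centring. Without a filter on low values 3395 were higher and 2384 lower. Weak signals limit what can be said of genes under 4, and HSPA5 and the metallothioneins lie near the top of the scale.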

Other observations

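Over all genes 25.3% had a higher interaction, 12.4% a lower one and 37.7% either. Of 22 zinc, iron and metal transporter genes 9 were higher and 4 lower (59.1% called). SLC40A1, the iron exporter ferroportin, had an interaction of -1.10 from a CdCl level that fell from 6.71 to 5.91, and SLC39A4, a zinc importer, had one of 1.03 with a control that fell by 0.68 and a CdCl level that rose by 0.35. Of 19 apoptosis genes 3 were higher and 2 lower (26.3%, a smaller share than over all genes). PMAIP1, the BH3-only protein NOXA, fell with CdCl from a mean of 12.69 to 12.04 and rose in control by 0.77 from 10.23. HRK, another BH3-only protein, rose by 2.75 with CdCl and 1.51 in control. Its control mean at 12 h, 3.31, lies under 4, and with that mean set at 4 the control rise was 0.82. The second tested probe set of HRK had an interaction of 0.98 that did not pass (limma adjusted p = 0.085). Of 21 p53 targets 2 were higher and 8 lower (47.6%), and DDB2, a DNA repair protein, rose by 0.72 with CdCl and fell by 0.97 in control. Of 14 clock genes 2 were higher and 5 lower (50%), 4 of the 7 through control alone.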
